A study of Mus musculus with 16 samples.

Results

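The genes described here are 8 that mark the medium spiny neurons of the striatum: Ppp1r1b, Drd2, Adora2a, Penk, Tac1, Rgs9, Pde10a and Pde1b. They were found by symbol among the 24060 genes listed for each library, and all 8 were present. Of these, 7 had a mean of at least 1 RPKM (reads per kilobase of gene per 1e+06 reads) over the libraries and entered the tests with 12015 genes in all, and Drd2 did not. The samples were labelled as cortical brain tissue.

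Medium spiny neurons are the projection neurons of the striatum, the deep nucleus that lies beneath the cortex and white matter. They use GABA as transmitter and fall into a direct pathway class, which carries dopamine D1-type receptors and the substance P precursor Tac1, and an indirect pathway class, which carries Drd2, Adora2a and the enkephalin precursor Penk. Both classes share a cyclic nucleotide signalling system that holds Ppp1r1b, Pde10a, Pde1b and Rgs9. Some of these genes are also expressed at lower levels in cortical neurons, Penk and Tac1 in interneurons among them.

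Each of 4 genotypes was represented by 4 mice, 2 females and 2 males, aged 8 to 9 months, on a strain labelled C57BL/6; C3. P301S+ TREM2+/+ mice carried a transgene for P301S mutant tau and both Trem2 alleles. P301S+ TREM2+/- mice, called heterozygotes below, and P301S+ TREM2-/- mice, called knockouts below, carried the same transgene with 1 Trem2 allele and with none. TREM2+/+ mice, called controls below, lacked the transgene. The promoter of the transgene, the litters and any preparation batch were not given in the sources used here, and mice are numbered 1 to 4 within a genotype in accession order. Replicates are separate mice by their labels, and p-values measure the spread between these mice.

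In units of 1e+06 reads, depth ranged from 2.55 to 14.47 per library, with means of 8.01 ± 3.26 for the P301S+ TREM2+/+ libraries, 9.29 ± 1.96 for heterozygotes, 5.94 ± 2.68 for knockouts and 8.26 ± 4.24 for controls (SD, n = 4 each). Trem2, the lipid-sensing microglial receptor whose gene was targeted, stood at 1.44 to 3.75 RPKM in knockouts and at 4.50 RPKM or more in all other libraries, up to 34.0 RPKM. Heterozygote replicates 1 to 4 stood at 4.50, 8.37, 25.2 and 13.6 RPKM. They overlapped the controls (7.35 to 20.2 RPKM) and the P301S+ TREM2+/+ mice (14.3 to 34.0 RPKM), so Trem2 level did not tell these genotypes apart. All 14 cortical excitatory neuron markers were above the filter, and Slc17a7, the vesicular glutamate transporter of cortical projection neurons, stood between 64.0 and 274 RPKM in the 16 libraries. Control replicate 3 stood apart from the other 15 libraries over all genes, at 130.84 on a first principal component that held 52.4% of the variance, against −23.52 to 18.79 for the others. In that library Psap, the precursor of the lysosomal saposins, stood at 10.5 RPKM, against 640 to 886 RPKM in the other controls. Both P301S+ TREM2+/+ females stood apart on the second component, at −45.03 and −41.30 (14.6% of the variance).

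The 8 genes together took 0.169, 0.151, 0.221 and 0.262% of the reads in P301S+ TREM2+/+ replicates 1 to 4. They took 0.118, 0.199, 0.0458 and 0.222% in heterozygotes, 0.0727, 0.154, 0.315 and 0.300% in knockouts and 0.0467, 0.148, 0.108 and 0.180% in controls. Reads of these genes were thus present in every cortex library, and their share was lowest in 1 heterozygote, 1 knockout and 1 control and highest in the 2 male knockouts. In bulk tissue, fewer cells of a type and less RNA per cell cannot be told apart.

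Ppp1r1b encodes a protein phosphatase 1 inhibitor that is switched by dopamine through cAMP-dependent kinase. The gene lies on the plus strand at chr11:98348404-98357796 (GRCm38, GENCODE annotation), where its exons overlap those of 1700003D09Rik on the other strand, so that reads of the pair cannot be told apart without strand. It stood at 352, 367, 338 and 494 RPKM in P301S+ TREM2+/+ replicates 1 to 4, at 269, 324, 83.9 and 359 RPKM in heterozygotes, at 144, 215, 560 and 508 RPKM in knockouts and at 88.4, 245, 237 and 266 RPKM in controls. The lowest P301S+ TREM2+/+ library thus stood above the highest control. Heterozygotes and knockouts overlapped both of these groups. The group means were 388 ± 71.9 RPKM in P301S+ TREM2+/+ mice, 259 ± 122 RPKM in heterozygotes, 357 ± 208 RPKM in knockouts and 209 ± 81.5 RPKM in controls (SD, n = 4 each).

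Pde1b encodes a calcium and calmodulin dependent phosphodiesterase that breaks down cyclic nucleotides (chr15:103503034-103530052, plus strand). Its level was 57.8, 53.9, 49.2 and 53.3 RPKM in P301S+ TREM2+/+ mice, 32.6, 39.6, 17.0 and 47.1 RPKM in heterozygotes, 20.4, 30.6, 58.5 and 54.0 RPKM in knockouts and 16.9, 31.8, 25.2 and 36.0 RPKM in controls. P301S+ TREM2+/+ mice were the most uniform group for this gene, at 53.5 ± 3.53 RPKM, and lay above all 4 heterozygotes and all 4 controls. Pde10a, the dual cAMP and cGMP phosphodiesterase that is most abundant in medium spiny neurons (chr17:8525372-8986648, plus strand), stood at 8.23, 8.56, 14.1 and 16.7 RPKM in P301S+ TREM2+/+ mice, at 6.50, 8.88, 2.86 and 7.75 RPKM in heterozygotes, at 4.03, 10.2, 25.2 and 18.0 RPKM in knockouts and at 3.04, 10.7, 12.9 and 11.0 RPKM in controls. Here the 4 groups overlapped, and the highest values came from the male knockouts. Rgs9, a regulator that speeds the shut-off of G proteins below dopamine and opioid receptors (chr11:109225355-109298129, minus strand), stood at 9.98, 8.84, 7.71 and 9.58 RPKM in P301S+ TREM2+/+ mice, at 4.26, 6.36, 1.37 and 7.95 RPKM in heterozygotes, at 2.06, 5.56, 8.60 and 10.7 RPKM in knockouts and at 1.01, 3.95, 7.64 and 5.15 RPKM in controls. The lowest P301S+ TREM2+/+ library exceeded the highest control by a small margin, 7.71 RPKM against 7.64 RPKM in control replicate 3.

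Promoter windows of Pde1b, Rgs9 and Tac1 are shown because these genes varied together over the libraries and differ in what their start sites hold. Each runs from 250 bases before to 50 bases after a transcript start in RefSeq (GRCm38.p6), and such windows were found for 5 of the 8 genes. Capitals mark matches to short motifs on either strand, with no overlap between motifs. The core of the cAMP response element, TGACG, was held by 20.8% of 32851 mouse windows of the same length. The TATA box was searched as TATAAA and held by 13.6% of them. The GC box was searched as GGGCGG and held by 35.7%. An E-box, CAGCTG, was held by 16.3%. Of 3 Pde1b windows the one shown, chr15:103502784-103503083 on the plus strand, had a GC content of 67.0% and 2 GC boxes on its minus strand. Another, chr15:103506876-103507175, had a GC content of 44.0% and no GC box. Its TATAAA match lay 29 bases after the start and not before it. The third held none of these motifs. The Rgs9 window, chr11:109298132-109298431 on the minus strand, held a TATA box 195 bases before the start, 2 GC boxes and an E-box.
Pde1b: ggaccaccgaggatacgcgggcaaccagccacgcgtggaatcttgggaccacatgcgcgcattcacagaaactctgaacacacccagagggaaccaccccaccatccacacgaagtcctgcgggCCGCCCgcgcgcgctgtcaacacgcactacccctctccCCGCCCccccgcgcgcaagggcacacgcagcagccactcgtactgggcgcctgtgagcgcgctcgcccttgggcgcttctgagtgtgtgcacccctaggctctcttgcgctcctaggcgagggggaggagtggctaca
Rgs9: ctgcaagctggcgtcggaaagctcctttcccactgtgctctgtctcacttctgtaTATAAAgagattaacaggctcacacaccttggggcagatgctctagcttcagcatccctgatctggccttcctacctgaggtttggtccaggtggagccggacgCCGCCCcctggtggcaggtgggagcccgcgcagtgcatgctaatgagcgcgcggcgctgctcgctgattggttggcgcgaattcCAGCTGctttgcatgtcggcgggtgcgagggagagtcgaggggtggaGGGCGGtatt

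Tac1 encodes the precursor of substance P and marks direct pathway neurons, with a smaller number of cortical interneurons (chr6:7554879-7565834, plus strand). It stood at 239, 135, 213 and 177 RPKM in P301S+ TREM2+/+ mice, at 85.7, 226, 44.0 and 282 RPKM in heterozygotes, at 51.8, 186, 230 and 184 RPKM in knockouts and at 44.9, 86.5, 127 and 171 RPKM in controls. The groups overlapped, and the highest and the lowest value were both from heterozygotes. Its promoter window, chr6:7554811-7555110 on the plus strand, differed from the other windows of these genes in holding 2 copies of the cAMP response element core, both on the minus strand, 197 and 43 bases before the start. The full palindrome TGACGTCA, held by 1.79% of all windows, was not among the letters of this window.
Tac1: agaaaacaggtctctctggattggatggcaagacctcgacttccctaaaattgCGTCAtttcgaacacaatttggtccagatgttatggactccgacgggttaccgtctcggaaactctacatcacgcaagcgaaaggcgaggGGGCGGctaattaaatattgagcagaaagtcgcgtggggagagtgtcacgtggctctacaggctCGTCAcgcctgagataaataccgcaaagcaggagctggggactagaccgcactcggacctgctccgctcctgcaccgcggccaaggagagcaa

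Penk encodes the enkephalin precursor of indirect pathway neurons (chr4:4133531-4138819, minus strand, with exons that overlap A830012C17Rik on the plus strand). It stood at 339, 282, 746 and 831 RPKM in P301S+ TREM2+/+ mice, at 303, 652, 122 and 711 RPKM in heterozygotes, at 212, 519, 1032 and 1046 RPKM in knockouts and at 125, 479, 117 and 633 RPKM in controls. Both males exceeded both females in P301S+ TREM2+/+ mice and in knockouts, whereas in heterozygotes and controls each sex held a low and a high library. Control replicate 3 had the lowest Penk level of all 16 libraries.

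Adora2a encodes the adenosine receptor that opposes Drd2 on indirect pathway neurons (chr10:75316877-75334784, plus strand). It stood at 5.63, 7.29, 4.92 and 11.6 RPKM in P301S+ TREM2+/+ mice, at 3.85, 7.96, 1.26 and 6.86 RPKM in heterozygotes, at 3.44, 3.76, 12.8 and 17.1 RPKM in knockouts and at 0.674, 25.1, 48.8 and 8.92 RPKM in controls. The controls held the lowest and the highest library, a range of 72.5-fold, and the control mean of 20.9 ± 21.2 RPKM (SD, n = 4) had an SD as large as itself. The female controls, replicates 2 and 3, stood above every other library for Adora2a and not for Penk, the other indirect pathway gene.

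Drd2, the dopamine receptor that defines indirect pathway neurons (chr9:49340627-49408177, plus strand), was read 24 times in all 16 libraries. The reads were 0, 0, 0 and 3 in P301S+ TREM2+/+ mice, 0, 2, 0 and 0 in heterozygotes, 0, 1, 0 and 3 in knockouts and 0, 4, 10 and 1 in controls. A count of 0 allows up to 3 reads, which for this gene corresponded to 0.183 to 0.381 RPKM in the libraries at 0. Of the 24 reads, 10 came from control replicate 3, which at 1.91 reads per 1e+06 was the highest library, followed by knockout replicate 4 at 0.445. No fold or test is given at this depth. Read numbers without molecular identifiers cover counting error only.

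**Figure D1:**
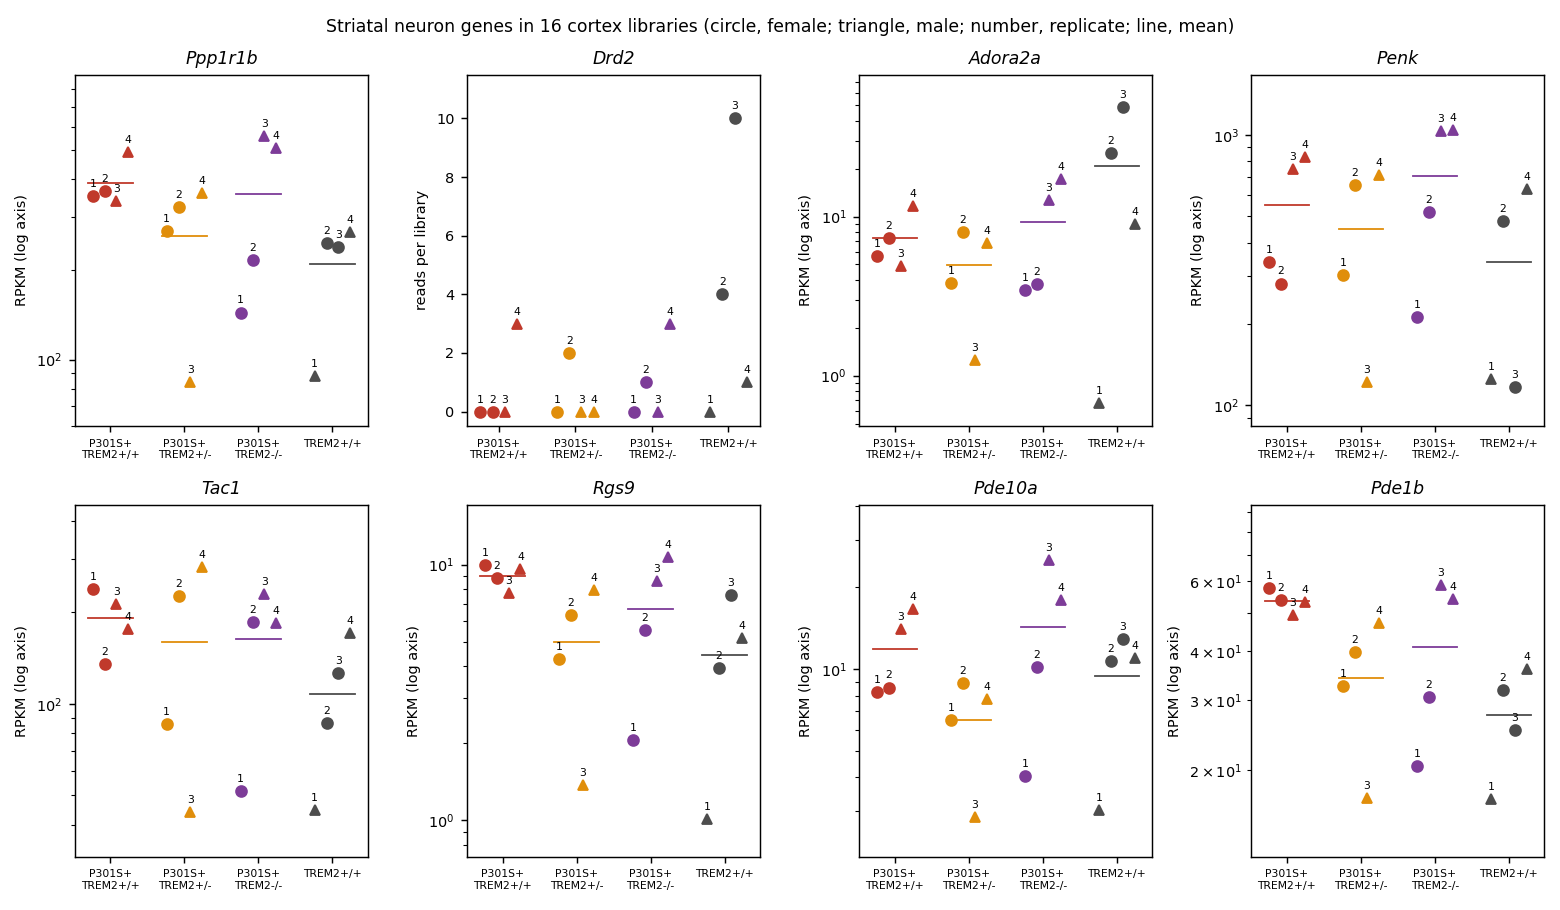
Level of each striatal neuron gene in the 16 cortex libraries, in RPKM on a log axis (reads per library on a linear axis for Drd2), by genotype, with circles for females, triangles for males, the replicate number above each point and a line at the group mean. Heterozygote replicate 3, knockout replicate 1 and control replicate 1 lie at or near the bottom of most panels, and control replicate 3 is low for Penk (117 RPKM) and high for Adora2a (48.8 RPKM).

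The libraries were placed in order by averaging, over the 7 genes tested, the log2(RPKM + 1) level centred and scaled over the 16 libraries. The lowest were control replicate 1 at −1.82, heterozygote replicate 3 at −1.76 and knockout replicate 1 at −1.17 SD units. Control replicate 1 and heterozygote replicate 3 were among the 3 lowest libraries for 7 of 7 genes, and knockout replicate 1 for 6 of 7. The next library, heterozygote replicate 1, stood at −0.41. At the other end, knockout replicates 3 and 4 stood at 1.10 and 1.01 and were each among the 4 highest libraries for 6 of 7 genes. The 4 P301S+ TREM2+/+ libraries lay between 0.24 and 0.84, so that this genotype was the one without a library below the middle of the order, and the controls other than replicate 1 lay between 0.03 and 0.20. Neighbours in the middle of the order lay close together, such as control replicates 2 and 3 at 0.03 and 0.06, and did not keep their order from gene to gene.

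The spread within genotypes was large for these genes. The SD within genotype on the log2(RPKM + 1) scale was 0.52 for Pde1b, 0.75 for Rgs9, 0.77 for Pde10a, 0.78 for Ppp1r1b, 0.91 for Tac1, 1.10 for Penk and 1.29 for Adora2a, against a median of 0.34 over all genes tested. Only 0.558% of genes had a larger SD than Adora2a, and 21.3% had a larger one than Pde1b. The share of the variance that lay between genotypes was 39.1% for Pde1b, 28.0% for Rgs9, 24.1% for Ppp1r1b and 12.7% to 21.8% for the other 4 genes, against a median of 22.3% over all genes. Pearson's r between level and library depth over 16 libraries ranged from 0.01 to 0.29 over the 7 genes, and none passed (permutation p adjusted over the 7 relations from 0.740 to 0.978). Spearman's rho ran from −0.04 to 0.38, and r without the 2 libraries farthest in depth from −0.02 to 0.40.

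The genes varied together over libraries. Ppp1r1b and Pde1b had a Pearson's r of 0.95 and a Spearman's rho of 0.95 over 16 libraries (permutation p = 1e-05 for each, the smallest that 100000 permutations can give, adjusted p = 5.25e-05 for r and 0.000105 for rho over 21 pairs), and r was 0.92 without control replicate 1 and heterozygote replicate 3, the 2 libraries farthest from the median. Of the 21 pairs of genes, 18 passed an adjusted permutation p of 0.05 by r and 17 by rho, with r from 0.34 to 0.95 and a median of 0.77. The 15 pairs without Adora2a had r from 0.67 to 0.95, or 0.53 to 0.92 without the 2 farthest libraries of each pair, and 0.65 to 0.96 after the genotype means were removed. The 6 pairs with Adora2a had r from 0.34 to 0.74, of which 3 passed. The r of Adora2a with Ppp1r1b was 0.62 over all libraries. It was 0.23 without control replicate 1 and heterozygote replicate 3, the 2 farthest libraries, and 0.79 without control replicate 3 alone. After the genotype means were removed it was 0.80. The strength of this relation thus depended on which libraries were kept. Without control replicate 3, r over the 21 pairs ranged from 0.57 to 0.98. The genes were picked with earlier results of these data known, and the pairs share their libraries, so the passing counts describe these libraries.

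Pearson's r between the genes was higher among males than among females. Over the 8 male libraries r ranged from 0.84 to 0.99 in the 21 pairs, and over the 8 female libraries from −0.38 to 0.92, with Adora2a and Penk the lowest pair. This difference between the sexes was not tested. The females include all 3 libraries that stood apart over all genes. In the order of libraries given above, males ran from −1.82 to 1.10 and females from −1.17 to 0.41. Because r rises with the range of levels, it cannot show here whether the genes varied together more tightly in males.

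Ratios of reads to those of Ppp1r1b showed how far the other genes kept step with it. Pde1b had 0.230 to 0.445 reads per Ppp1r1b read in the 16 libraries, a 1.93-fold range, compared with the 6.67-fold range of Ppp1r1b RPKM itself. The range of Pde1b RPKM was smaller, at 3.47-fold. Its ratio was highest in heterozygote replicate 3 (0.445) and control replicate 1 (0.420), which were low in both genes. It was lowest in knockout replicate 3 (0.230), which was highest in both, so Pde1b changed less than Ppp1r1b. The ratio had a range of 2.53-fold for Pde10a, 2.72-fold for Tac1 and 2.81-fold for Rgs9. For Penk it ran from 0.418 in control replicate 3 to 2.05 in knockout replicate 2, and for Adora2a from 0.0119 in control replicate 1 to 0.321 in control replicate 3. Without control replicate 3 the ranges narrowed to 3.14-fold for Penk and 13.4-fold for Adora2a.

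**Figure D2:**
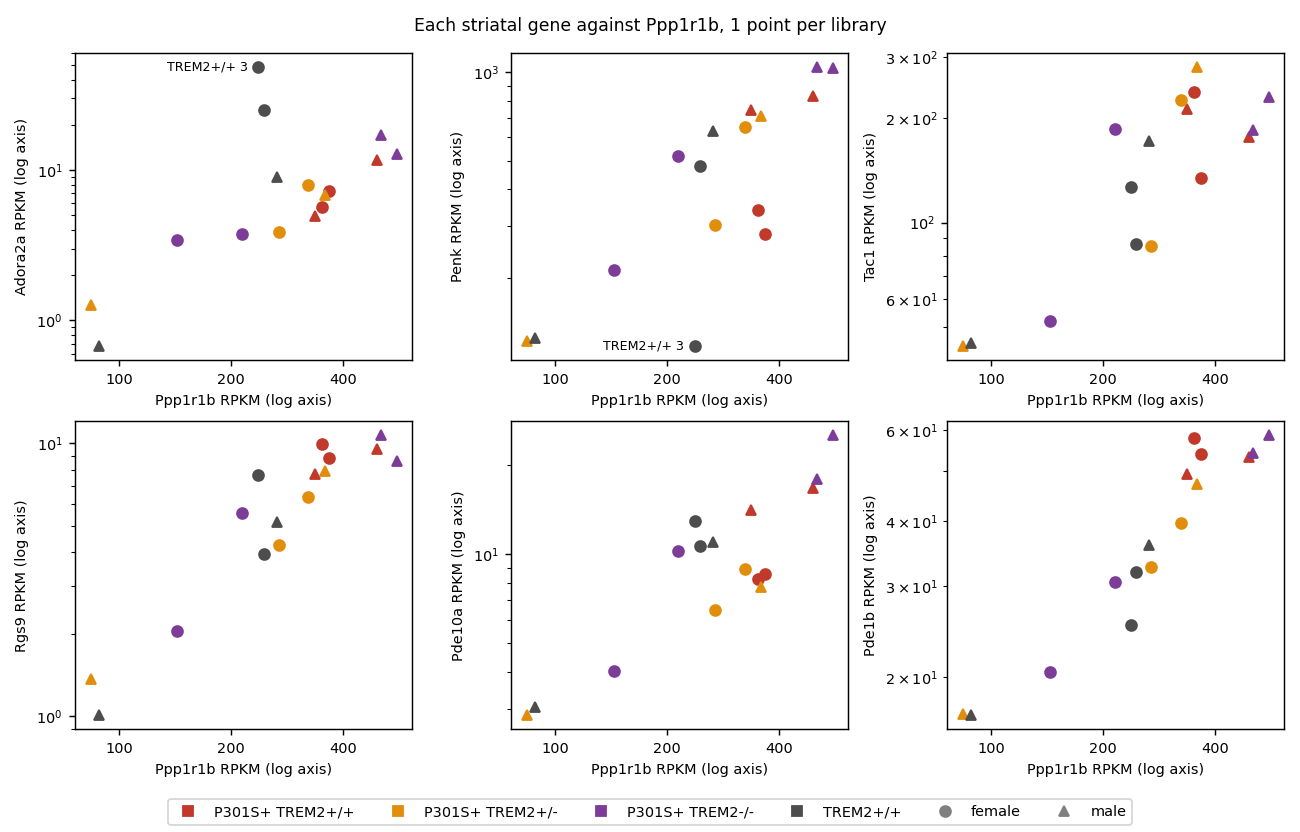
RPKM of each of 6 striatal neuron genes against RPKM of Ppp1r1b, both on log axes, with 1 point per library coloured by genotype and shaped by sex. Pde1b and Rgs9 follow Ppp1r1b closely (r of 0.95 and 0.94 over 16 libraries), while control replicate 3 lies above the others for Adora2a and below them for Penk.

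P301S+ TREM2+/+ mice were first set against controls, which differ in the tau transgene. Of the 7 genes, 6 lay above 0, with log2 differences of 0.99 (SE 0.35) for Pde1b, 1.06 (SE 0.50) for Rgs9, 0.99 (SE 0.52) for Ppp1r1b, 0.95 (SE 0.59) for Tac1, 0.93 (SE 0.67) for Penk and 0.39 (SE 0.50) for Pde10a, and Adora2a was at −0.60 (SE 0.82). The median over the 7 was 0.95, against 0.06 over all genes tested, of which 57.1% lay above 0. None of the 7 passed limma with Benjamini-Hochberg adjustment over all genes (adjusted p from 0.281 for Pde1b to 0.748 for Adora2a), and neither did any other gene (0% called, 13.8% at an unadjusted p under 0.05). The unadjusted p was 0.0131 for Pde1b and 0.0507 for Rgs9. All 4 P301S+ TREM2+/+ libraries stood above all 4 controls for 3 of the 7 genes, Ppp1r1b, Rgs9 and Pde1b, as they did for 3.55% of all genes.

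The size of this difference depended on control replicate 1, the lowest library of all. Without it the median over the 7 genes was 0.53 and Pde10a turned to −0.09, whereas without any other single library the median stayed between 0.87 and 1.14. Adora2a turned to 0.06 without control replicate 3. Without the 3 libraries that stood apart over all genes, which leaves P301S+ TREM2+/+ mice with males alone, the median was 1.05 and Adora2a turned to 0.27. In the other comparisons between genotypes given below, the median without those 3 libraries kept its direction.

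Heterozygotes were then set against P301S+ TREM2+/+ mice, which asks what the loss of 1 Trem2 allele does in tau transgenic cortex. All 7 genes lay below 0, from −0.45 (SE 0.67) for Penk to −0.90 (SE 0.50) for Rgs9, with Ppp1r1b at −0.76 (SE 0.52) and Pde1b at −0.72 (SE 0.35). The median was −0.72, against 0.01 over all genes, of which 47.5% lay below 0. None passed (adjusted p = 0.9996 in limma for each, with 0% of genes called and 2.70% at an unadjusted p under 0.05). Heterozygotes and P301S+ TREM2+/+ mice did not overlap for 1 of the 7 genes, Pde1b, which was lower in heterozygotes, as were 1.46% of all genes in that manner. The median was −0.24 without heterozygote replicate 3, and Penk then turned to 0.24.

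Knockouts were set against P301S+ TREM2+/+ mice as the comparison of complete loss. The genes divided, with 3 above 0 (Penk at 0.25, Adora2a at 0.09 and Pde10a at 0.06) and 4 below (Rgs9 at −0.54, Pde1b at −0.50, Tac1 at −0.39 and Ppp1r1b at −0.32), with SE from 0.35 to 0.82. The median was −0.32, against −0.02 over all genes, of which 46.8% lay above 0. None passed (adjusted p from 0.651 to 0.983 in limma, with 0.00832% of genes called), and 9.90% of genes had an unadjusted p under 0.05. None of the 7 genes had groups that did not overlap, which 2.86% of all genes did with knockouts higher and 4.76% with knockouts lower. The knockouts held both the 2 highest libraries of the order and the third lowest, and the median was 0.11 without knockout replicate 1 and −0.61 without knockout replicate 3. Without the 3 libraries that stood apart over all genes, the 3 genes above 0 turned, Penk to −0.32, Adora2a to −0.14 and Pde10a to −0.24.

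In knockouts set against heterozygotes 7 of 7 genes lay above 0, from 0.19 (SE 0.59) for Tac1 to 0.87 (SE 0.50) for Pde10a, with a median of 0.43 against −0.03 over all genes, of which 44.5% lay above 0. None passed (adjusted p = 0.9999 in limma, 0% called, 3.42% at an unadjusted p under 0.05), and the median was −0.05 without heterozygote replicate 3 and 0.81 without knockout replicate 1. Against controls, heterozygotes had 5 genes above 0 and a median of 0.23, from −1.20 (SE 0.82) for Adora2a to 0.49 (SE 0.67) for Penk. Knockouts against controls had 6 genes above 0 and a median of 0.52, from −0.51 (SE 0.82) for Adora2a to 1.18 (SE 0.67) for Penk. With 1 library left out, the median in heterozygotes against controls ran from −0.19 (without control replicate 1) to 0.61 (without heterozygote replicate 3), and in knockouts against controls from 0.15 (without control replicate 1) to 0.96 (without knockout replicate 1). The median over all genes was 0.08 in both of these comparisons, with 59.9% of genes above 0 in heterozygotes and 58.1% in knockouts. No member passed in either (adjusted p in limma from 0.526 to 0.888 in heterozygotes and from 0.450 to 0.732 in knockouts). Of all genes 0% were called in each, and 9.60% in heterozygotes and 9.71% in knockouts had an unadjusted p under 0.05. These comparisons share the control libraries or the transgenic ones with those above.

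**Figure D3:**
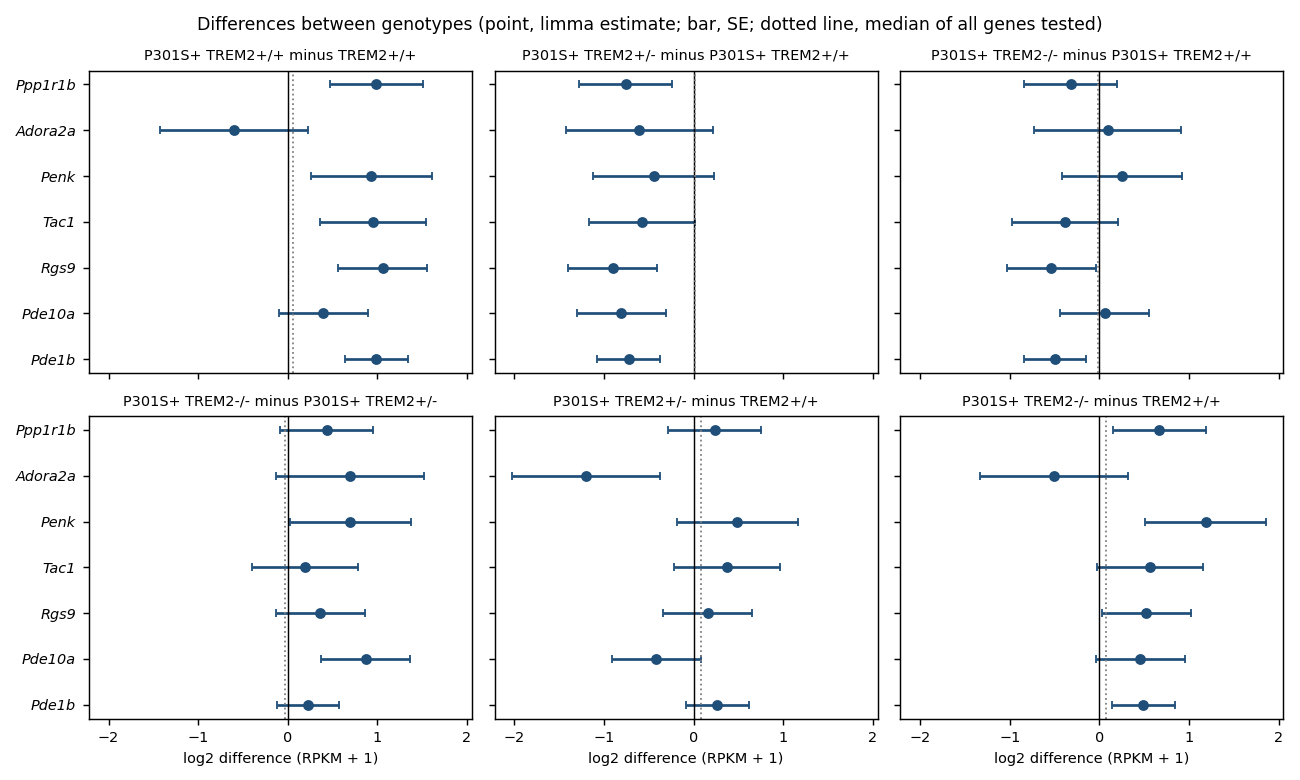
Log2 difference in RPKM + 1 for 7 striatal neuron genes in the 6 comparisons between genotypes, as limma estimates (points) with SE (bars), with a dotted line at the median of all genes tested. In the first panel 6 of 7 points lie above 0, in the second 7 of 7 lie below, and in no panel did a gene pass the adjusted threshold of 0.05.

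**Figure D4:**
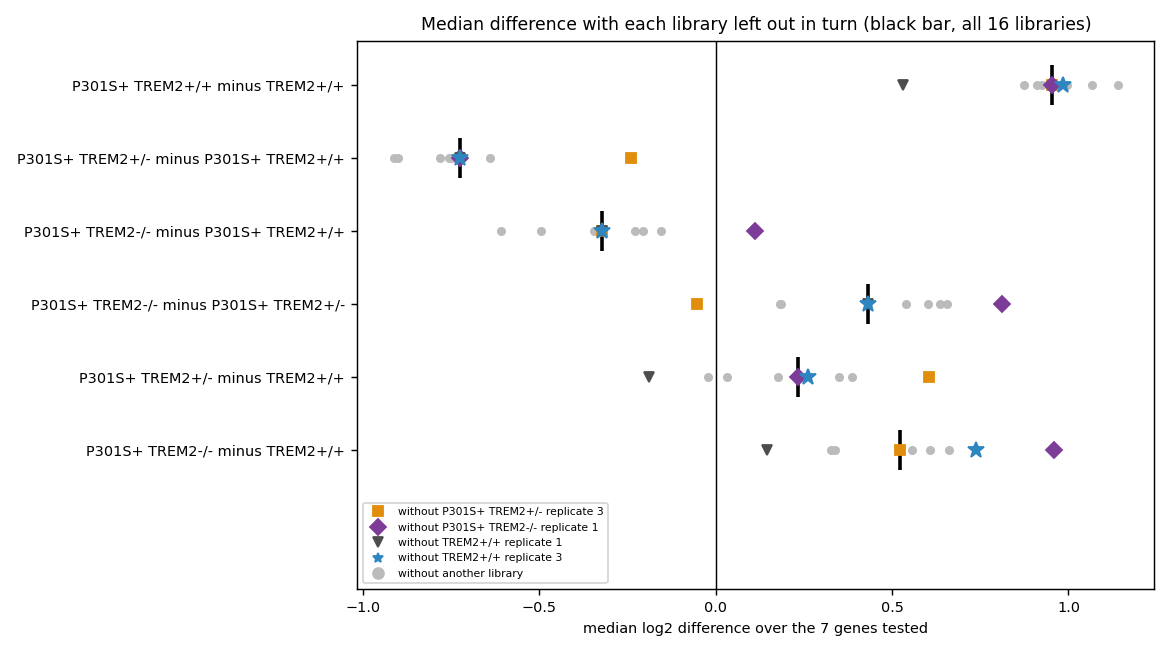
Median log2 difference over the 7 genes in each comparison between genotypes, with all 16 libraries (black bar) and with each library left out in turn (symbols). The largest shifts came from leaving out heterozygote replicate 3, knockout replicate 1 or control replicate 1, with medians of −0.24, 0.11 and 0.53 in the first comparison each touches.

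Between females and males over the 4 genotypes none of the 7 genes passed (adjusted p from 0.488 to 0.950 in limma, where 0.0416% of genes were called and 14.1% had an unadjusted p under 0.05). The female minus male differences had a median of −0.12, from −0.66 (SE 0.48) for Penk to 0.45 (SE 0.58) for Adora2a, and 5 of 7 lay below 0, as did 62.9% of all genes. With 1 library left out this median ran from −0.36 (without heterozygote replicate 3) to 0.10 (without knockout replicate 1). The difference between P301S+ TREM2+/+ mice and controls, taken as females minus males, was −3.37 (SE 1.09) for Adora2a and −1.67 (SE 0.74) for Pde10a on the log2 scale. The unadjusted p was 0.00975 for Adora2a and 0.0435 for Pde10a, and neither passed (adjusted p = 0.344 and 0.365 in limma, 0.00832% called, 13.5% at an unadjusted p under 0.05). Each cell of this comparison holds 2 mice, and the female cells hold all 3 libraries that stood apart, so that it could not be fitted without them. Without control replicate 2, which leaves control replicate 3 as the lone control female, Adora2a passed at −3.83 (adjusted p = 0.0191 in limma) along with 5012 genes in all. The complete loss difference, again females minus males, was −1.41 (SE 0.85) for Ppp1r1b and −1.26 (SE 0.60) for Pde1b, with adjusted p of 0.813 and 0.704 in limma (0% called, 7.24% at an unadjusted p under 0.05). With only the genotypes compared in the fit, those 2 passed (adjusted p = 0.0424 for Ppp1r1b and 0.0346 for Pde1b), as did 437 genes in all. In partial loss by sex no member passed (adjusted p from 0.784 to 0.989 in limma, 0% called, 6.48% at an unadjusted p under 0.05).

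Other genes of striatal neurons varied with the members over the libraries. A list of 29 further genes, chosen with earlier results of these data known, held 26 above the filter. Levels of the 26 were centred, scaled and averaged per library as for the 7 members. That average had an r of 0.94 with the members' average over the 16 libraries, as a description of libraries that share RNA and depth. Gene by gene, the median r with the members' average was 0.76 for the 26, against −0.01 for 12008 non-member genes. Of the 26, 11 exceeded 0.8, against 0.233% of all. Ptpn5 was at 0.37, and at 0.77 without control replicate 3. Among the 10 genes most like the members were Gng7 (r = 0.96), Foxp2 (0.93), Drd1a (0.92), Six3 (0.91), Nexn (0.91), Dach1 (0.89), Syndig1l (0.89), Oprk1 (0.89) and Slc22a3 (0.88), of which Gng7, Foxp2, Drd1a, Six3 and Syndig1l were on the list. Without control replicate 3, those 5 stayed among the nearest 10, with Drd1a first at 0.99, and Nexn, Dach1, Oprk1 and Slc22a3 did not. Drd1a is the symbol under which the D1 dopamine receptor of direct pathway neurons is listed, and it stood at 7.49 RPKM in heterozygote replicate 3 and 7.65 RPKM in control replicate 1, against 13.3 RPKM or more elsewhere. Its highest level, 73.3 RPKM, came from control replicate 3, which stood at 0.06 in the order by the members.

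Single members had their own nearest genes. The closest to Ppp1r1b was Gng7, a G protein subunit of the striatal dopamine pathway (r = 0.97), and to Pde1b also Gng7 (0.92). Penk was nearest to Adcy5, the adenylyl cyclase of medium spiny neurons (0.96), Tac1 to Six3 (0.95), Rgs9 to Serpina9 (0.94), Pde10a to Dach1 (0.95) and Adora2a to Syndig1l (0.86). Without control replicate 3 the nearest gene was another one for 6 of the 7: Syndig1l for Ppp1r1b (0.98), Rasd2 for Pde1b (0.96), Gnal for Penk (0.97), Klhl13 for Tac1 (0.97), Rxrg for Rgs9 (0.96) and Rasgrp2 for Adora2a (0.95). Pde10a kept Dach1 (0.95).

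None of the 26 other striatal genes passed in any comparison. Their log2 differences between P301S+ TREM2+/+ mice and controls lay above 0 for 25 of 26, with a median of 0.50, among them Pdyn, the dynorphin precursor, at 1.07 (SE 0.38, adjusted p = 0.283 in limma), Ptpn5, a striatum-enriched phosphatase, at 0.89 (SE 0.34), Meis2 at 0.83 (SE 0.39) and Scn4b, a sodium channel subunit, at 0.69 (SE 0.62). Gng7 was at 0.66, Drd1a at 0.53, Adcy5 at 0.51 and Bcl11b, a transcription factor of medium spiny neurons and deep cortical layers, at 0.23. Control replicate 3, which stood apart over all genes, was the lowest control for Ptpn5 and Scn4b. Ptpn5 stood there at 22.3 RPKM, against 77.8 to 86.2 RPKM in the other controls. Scn4b stood at 3.47 RPKM, against 14.8 to 32.2 RPKM, while P301S+ TREM2+/+ replicates 1 and 2 were at 9.59 and 14.0 RPKM. The same library was the highest control for Drd1a (73.3 RPKM) and Meis2 (92.9 RPKM). Differences without it are not given for this list. In heterozygotes against P301S+ TREM2+/+ mice 23 of 26 lay below 0 (median −0.40), and in knockouts against P301S+ TREM2+/+ mice 14 of 26 did (median −0.05). Gpr6, an indirect pathway receptor, had 9 reads in all libraries and was not tested.

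Of the wider families to which the members belong, the signalling, phosphodiesterase and RGS lists had medians nearer to that of all genes. The dopamine, adenosine, opioid and tachykinin list did not. Of 19 genes of cAMP and phosphatase signalling, 18 were tested, none passed, and the median difference between P301S+ TREM2+/+ mice and controls was 0.05. The median was 0.14 for 14 other phosphodiesterases and −0.003 for 15 other RGS genes and their partners, again with none passing in any comparison. The averages of these lists, taken as for the other striatal list, had r of 0.48, 0.33 and 0.31 with the members. Without control replicate 3, r was 0.65, 0.45 and 0.48. Of 15 other dopamine, adenosine, opioid and tachykinin genes, 8 were tested and 6 lay above 0 (median 0.59), none passed, and Drd3 was at 0 in every library. Their average had an r of 0.71 with the members, both with and without control replicate 3. This list shared Drd1a and Pdyn with the other striatal list, and the signalling list shared Adcy5, Gnal and Gng7 with it.

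Markers of other tissue that a cortical dissection can hold were read beside the members. The cholinergic interneuron list, also striatal, had an r of 0.71 with the members, and its enzyme Chat stood at 0.0555 RPKM in heterozygote replicate 3, 0.325 RPKM in knockout replicate 1 and 0.288 RPKM in control replicate 1, the 3 libraries lowest in the members, against 0.95 RPKM or more elsewhere. The 14 cortical excitatory markers had an r of −0.53, the 5 tested hippocampal markers −0.50, and the 5 tested claustrum and deep layer markers 0.56. Without control replicate 3, r was 0.81 for the claustrum and deep layer list and 0.77 for the cholinergic list. The claustrum and deep layer list holds Oprk1, named above among the 10 genes most like the members (r = 0.89), which is also on the opioid list. Cortical excitatory markers summed to 5224 to 8565 reads per 1e+06 in P301S+ TREM2+/+ mice. The sums were 3969 to 10329 in heterozygotes, 6064 to 10177 in knockouts and 7425 to 19754 in controls. The 19754 came from control replicate 3, against 8588, 13694 and 7425 in control replicates 1, 2 and 4. Of these markers, 10 of 14 lay below 0 in P301S+ TREM2+/+ mice against controls, with none passing. Choroid plexus markers did not follow the members (r = −0.04), but 7 of the 7 tested lay above 0 in P301S+ TREM2+/+ mice against controls, with a median of 0.86. Myelin markers also lay above 0 for 7 of 7 in that comparison (median 0.46), as did 6 of 7 subventricular neuroblast markers (0.42) and 5 of 5 tested thalamic markers (0.27), with none passing, and r with the members was 0.16, 0.30 and 0.14 for these lists. Choroid plexus markers summed to 286 to 2267 reads per 1e+06 in P301S+ TREM2+/+ mice, 92.3 to 758 in heterozygotes, 179 to 1260 in knockouts and 147 to 683 in controls, and their secreted carrier Ttr reached 1616 and 1739 RPKM in P301S+ TREM2+/+ replicates 2 and 3. The part of other tissue in the differences between genotypes was not tested.

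**Figure D5:**
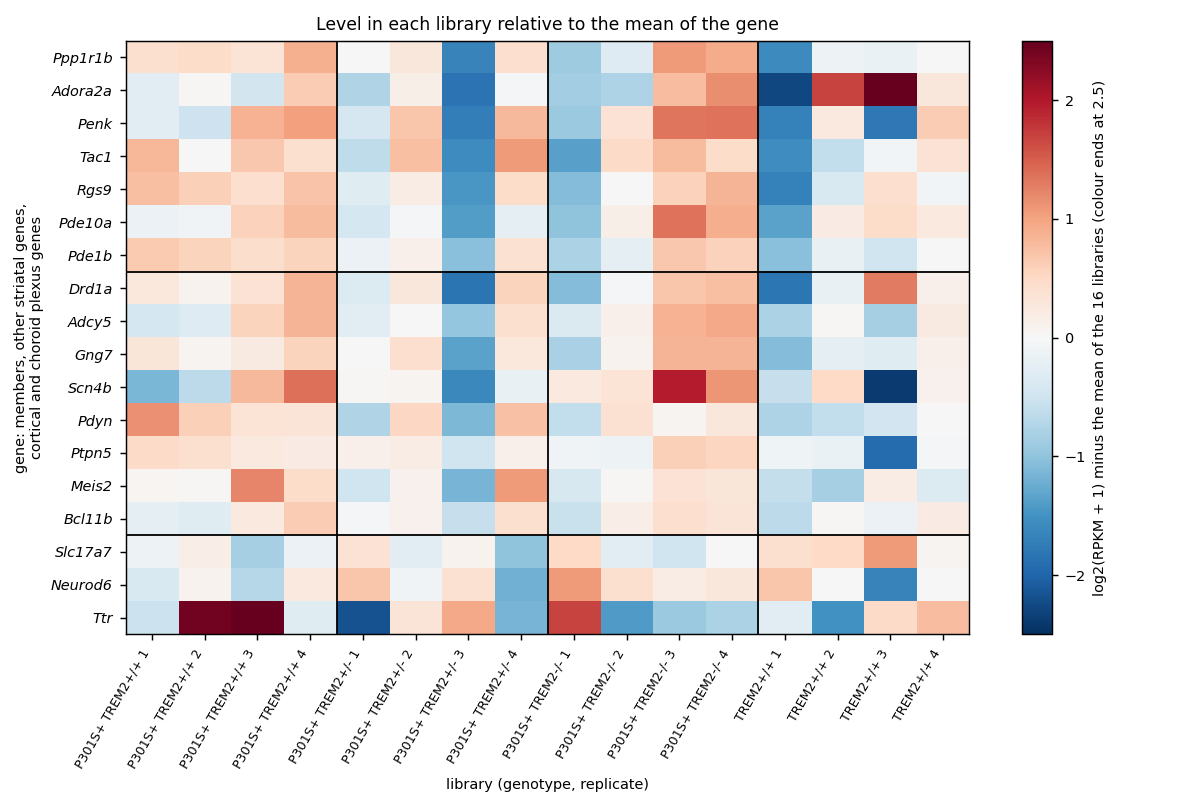
Level of 7 striatal neuron genes, 8 other striatal genes, 2 cortical genes and Ttr in each library, as log2(RPKM + 1) minus the mean of the gene over 16 libraries, with colour ending at 2.5 either way. Blue columns at heterozygote replicate 3, knockout replicate 1 and control replicate 1 run through members and most other striatal genes and do not continue into Slc17a7 and Neurod6.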

How the data were processed

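Cortical RNA of 16 mice was made into 3' end libraries with the Lexogen QuantSeq kit and sequenced on an Illumina HiSeq, per the labels' protocols. STAR, HTSeq, edgeR, limma and mm10 are named in the submitters' processing notes, without versions or roles. The deposited values are RPKM, as judged from the values themselves: whole reads were recovered for 100.0% of 18911 genes above 0 (tolerance 0.0001 reads or a relative 3e-07), and the implied gene lengths were whole for 99.1%. Division by gene length does not suit 3' end reads, so a gene was compared only with itself between libraries. The sources used here do not say whether strand was used in counting. A single line in each file (1 per library) had a blank gene name and was dropped.

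Log2(RPKM + 1) was fitted with limma 3.58.1 (trend) in R 4.3.3 for the 12015 genes with a mean of at least 1 RPKM, with genotype and sex over all 16 libraries, and Benjamini-Hochberg adjusted p-values over all genes, threshold 0.05. Differences are on that scale, which understates low genes. Interactions used genotype and sex cells. Alternatives were limma-voom on recovered reads, a pseudocount of 0.1, no filter, scaling by trimmed means of log ratios (TMM), no sex term, only the genotypes compared, array weights, and leaving out libraries. The fit of P301S+ TREM2+/+ mice against controls was tested on simulated reads. It recovered 102 of 200 genes changed 2-fold (51%), with 6 false calls. Of 200 genes changed 4-fold it recovered 200, with 12 false calls. The simulated spread was the same for all genes and was not set to that of the members, so these shares do not apply to them. Pearson and Spearman correlations used 100000 permutations. The members and gene lists were chosen with earlier results of these data known. Besides all members, the text names other striatal genes fixed by name, the 10 genes with the highest r to the members' average and the nearest genes of each member, and any list gene past the threshold. Trem2, Chat, Slc17a7, Neurod6, Psap, Ttr, Drd3, Th, Dlx1 and Dlx2 were named after their values were seen, and some genes that these rules name are not reported here. Positions come from GENCODE M21 and promoter windows from RefSeq, both on GRCm38, the build that mm10 names.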

Additional observations from a re-analysis of the deposited data

Results flagged for a closer look

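Ppp1r1b in control replicate 1 stood at 88.4 RPKM, against 237, 245 and 266 RPKM in the other 3 controls. The gap to the nearest control was 0.839 of the range of the group, above Dixon's 95% critical value for 4 samples. It was 1 of 28 groups of 4 libraries tested in this way (7 genes in 4 genotypes), and chance flags about 1 in 20 groups. The same library was among the 3 lowest of all 16 for 7 of 7 genes.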

How the results depend on the processing

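Over the settings other than leaving out 1 library, 390 of 402 member differences kept their direction and their side of the threshold, 10 turned and 2 newly passed. No paired analysis was possible because replicate numbers were given in accession order and do not link mice across genotypes. Differences turned without the 3 libraries that stand apart for Adora2a in P301S+ TREM2+/+ mice against controls (0.27), in complete loss (−0.14) and in knockouts against controls (0.13), for Penk (−0.32) and Pde10a (−0.24) in complete loss, and for Rgs9 between the sexes (−0.18). With array weights they turned for Penk in partial loss (0.20), for Tac1 (−0.47) and Rgs9 (−0.015) in knockouts against heterozygotes, and for Rgs9 between the sexes (−0.18). The cause was not tested. In complete loss by sex, fitting only the genotypes compared called 2 members (Ppp1r1b at −1.41 and Pde1b at −1.26).

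Counts of genes called over the whole table moved more. With array weights they were 197 in P301S+ TREM2+/+ mice against controls, 690 in complete loss, 5 in knockouts against heterozygotes, 131 in heterozygotes and 4 in knockouts against controls, 0 in the P301S effect by sex, 273 in partial loss by sex and 444 in complete loss by sex. With only the genotypes compared they were 7 in complete loss, 1 in knockouts against heterozygotes, 0, 134 and 437 in the 3 interactions. With limma-voom they were 1 in each of the 3 comparisons with controls, and 0 in complete loss and the P301S effect by sex. The count model planned for recovered reads is not given, because the deposited unit is RPKM. With no filter they were 0 in complete loss and 3 in partial loss by sex. Without the 3 libraries that stand apart they were 0 in complete loss, 44 in knockouts against heterozygotes, and 5 in heterozygotes and 1 in knockouts against controls. By Spearman's rho the likeness to the members was 0.71 for Dach1.

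Leaving out each library in turn gave 848 member differences, of which 37 turned and 1 passed. The median over members ranged from 0.532 to 1.141 in P301S+ TREM2+/+ mice against controls, −0.913 to −0.24 in partial loss, −0.61 to 0.11 in complete loss, −0.054 to 0.811 in knockouts against heterozygotes, −0.188 to 0.605 in heterozygotes and 0.145 to 0.958 in knockouts against controls, −0.359 to 0.096 between the sexes, and −1.622 to 0.026, −0.098 to 1.767 and −1.61 to −0.807 in the 3 interactions. Genes called ranged from 0 to 5, 0 to 0, 0 to 14, 0 to 2, 0 to 3, 0 to 1, 4 to 9, 1 to 5012, 0 to 385 and 0 to 568 in the same order, and the highest came without control replicate 3 except between the sexes and in the P301S effect by sex, where it came without control replicate 2. Members called ranged from 0 to 1 in the P301S effect by sex, Adora2a without control replicate 2, where control replicate 3 was the lone control female and was assumed to vary like the other groups.

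The differences that turned had these ranges. Adora2a ran from −1.556 to 0.062 and Pde10a from −0.092 to 0.642 in P301S+ TREM2+/+ mice against controls, and Penk from −0.875 to 0.242 in partial loss. In complete loss Ppp1r1b ran from −0.621 to 0.056, Adora2a from −0.386 to 0.514, Tac1 from −0.61 to 0.11 and Pde10a from −0.265 to 0.515. In knockouts against heterozygotes Ppp1r1b ran from −0.101 to 0.811, Tac1 from −0.377 to 0.686, Rgs9 from −0.054 to 0.799 and Pde1b from −0.114 to 0.513. In heterozygotes against controls Ppp1r1b ran from −0.188 to 0.768, Penk from −0.014 to 1.174, Tac1 from −0.044 to 0.943 and Rgs9 from −0.289 to 0.576. In knockouts against controls Adora2a ran from −1.465 to 0.152 and Pde10a from −0.03 to 0.91. Between the sexes Ppp1r1b ran from −0.359 to 0.097, Adora2a from −0.032 to 0.686, Tac1 from −0.436 to 0.096, Rgs9 from −0.173 to 0.268 and Pde1b from −0.295 to 0.019.

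Drd2 had 24 reads in all and was not tested.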

Other observations

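Th, the rate-limiting enzyme of dopamine synthesis, ranged from 2.87 to 29.5 RPKM in P301S+ TREM2+/+ mice, 1.15 to 23.1 RPKM in heterozygotes, 1.77 to 2.70 RPKM in knockouts and 1.02 to 52.4 RPKM in controls. Dlx1, a homeobox gene of interneurons and neuroblasts, ranged from 6.63 to 34.1 RPKM in P301S+ TREM2+/+ mice, 8.34 to 32.8 RPKM in heterozygotes, 7.53 to 10.7 RPKM in knockouts and 8.12 to 21.7 RPKM in controls. The related Dlx2 stood at 1.38 to 13.9 RPKM in P301S+ TREM2+/+ mice, 2.62 to 11.6 RPKM in heterozygotes, 2.97 to 4.91 RPKM in knockouts and 0.695 to 4.31 RPKM in controls. Among controls, the highest Th and Dlx1 and the lowest Dlx2 came from control replicate 3, which stood apart over all genes. Th stood at 2.69, 1.02 and 1.34 RPKM in control replicates 1, 2 and 4. For each of these genes, P301S+ TREM2+/+ replicate 3 and heterozygote replicate 4 alone gave the top values of their groups.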
